A study of Mus musculus with 12 samples.

Results

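Transcripts of 41 DNA damage checkpoint and repair genes were followed through the DN2, DN3 and DN4 stages of mouse thymocyte development. The genes were listed by name for their roles in checkpoint signalling, the p53 core, the MRN complex, homologous recombination and the RecQ helicases. Further roles were the Fanconi anaemia pathway, mismatch repair, and base excision and single-strand break repair. The list was chosen with earlier results of these data known, so shares called among its genes are not independent of the data. Each was represented by its brightest probe set among those that the platform annotation gives a single gene symbol. Of the 41 genes 39 had such a probe set, out of 18193 genes in the table, and all 39 lay above the filter on dim genes that left 11174 genes for testing. Trp53, which encodes p53 itself, and Xrcc2, a homologous recombination gene, had none and were not analysed here.

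Double negative (DN) thymocytes carry neither CD4 nor CD8 on their surface and pass through the stages in the order DN2, DN3 and DN4. The sort took CD44+CD25+ cells for DN2, CD44-CD25+ cells for DN3 and cells with neither marker for DN4, and RNA of each was read on Affymetrix Mouse Genome 430 2.0 arrays, with 4 arrays per stage and 12 in all. The cells came from female C57BL/6 mice 5 to 6 weeks of age, in 4 sorts of 4 pooled mice each (16 mice). Every sort yielded 1 array of each stage, so arrays of the same number share their mice. CD4+ and CD8+ cells had been removed on magnetic columns, and cells stained by PE-labelled antibodies to CD4, CD8, CD3, NK1.1 or TCR gamma-delta were excluded at the sorter. DN4 here leaves out cells stained for CD3 or TCR gamma-delta, and pooling removed differences between single mice from view.

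ATM and ATR are kinases that sense double-strand breaks and stalled replication forks, and they pass the signal through mediators to the kinases CHEK1 and CHEK2, which hold the cell cycle. Homologous recombination mends breaks from the sister chromatid, the Fanconi proteins open crosslinked DNA for that repair, and mismatch and base excision repair remove faulty bases. Thymocytes cut their own antigen receptor loci with the RAG recombinase at the DN2 and DN3 stages and divide rapidly once a T cell receptor beta chain has been made, which takes place around the passage from DN3 to DN4.

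Deposited signals had means after trimming of 129 to 233 per array and medians of 15.1 to 27.97, with the medians of DN4 arrays (15.1 to 18.0) in the lower part of that range. The signals were therefore quantile-normalized, and values below are normalized linear signals, with differences taken on log2(signal + 5.68) and given ± the standard error of the limma fit (n = 4 arrays per stage). A gene was called where its adjusted p (limma, Benjamini-Hochberg over the 11174 genes tested) was under 0.05. Cd44 averaged 725 in DN2, 49.5 in DN3 and 47.1 in DN4, and Il2ra, which encodes CD25, averaged 2358, 1414 and 120 in the same order of stages. Cd4 stayed below the filter, while Cd8b1 averaged 3.79 in DN2, 18.3 in DN3 and 313 in DN4. In sorted bulk samples of this kind, fewer cells of a type and less RNA per cell cannot be told apart.

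At the step to DN4 most of the listed genes had higher normalized signals, with 35 of 39 differences positive in DN4 against DN3 and 32 of 39 in DN4 against DN2. Over all 11174 genes tested 6143 differences were positive in each of these comparisons. Without between-array normalization, which lowered the all-gene median too, 13 and 17 of the 39 were positive. In that setting 30 and 29 of them lay above the all-gene median. Of the 39 genes 12 rose and 0 fell in DN4 against DN3, where 7.17% of all genes tested were called higher and 8.99% lower (16.2% in all). In DN4 against DN2 14 rose and 2 fell, where 17.9% of all genes were called higher and 16.6% lower (34.6% in all). In DN3 against DN2 0 were called, where 4.76% of all genes were called higher and 6.45% lower (11.2% in all). There 6 of the 39 genes had an unadjusted p under 0.05, beside 2792 of all 11174 genes tested. The median difference of the 39 genes was 0.31 in DN4 against DN3, beside 0.047 over all genes tested, 0.29 in DN4 against DN2, beside 0.062, and -0.044 in DN3 against DN2, beside 0.019. In all, 18 genes rose in at least 1 of the 2 comparisons of DN4, which share the DN4 arrays, and 8 rose in both.

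With the sort as a block the counts were 20 higher and 1 lower in DN4 against DN3. There 15.4% of all genes were then called higher and 14.8% lower. In DN4 against DN2 the block gave 21 higher and 3 lower, beside 24.9% and 21.9% of all genes. In DN3 against DN2 the block gave 1 higher (Mre11a) and 3 lower (Brca1, Rad54l and Msh6), beside 9.96% and 10.8% of all genes. In DN4 against DN3 the median of the 39 genes lay 0.27 above the median of all genes with quantile normalization, 0.31 above it with arrays centred on their median and 0.29 above it without between-array normalization. The last setting moved the all-gene median itself to -0.41, and the median of the 39 genes was then below 0 (-0.12).

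**Figure D1:**
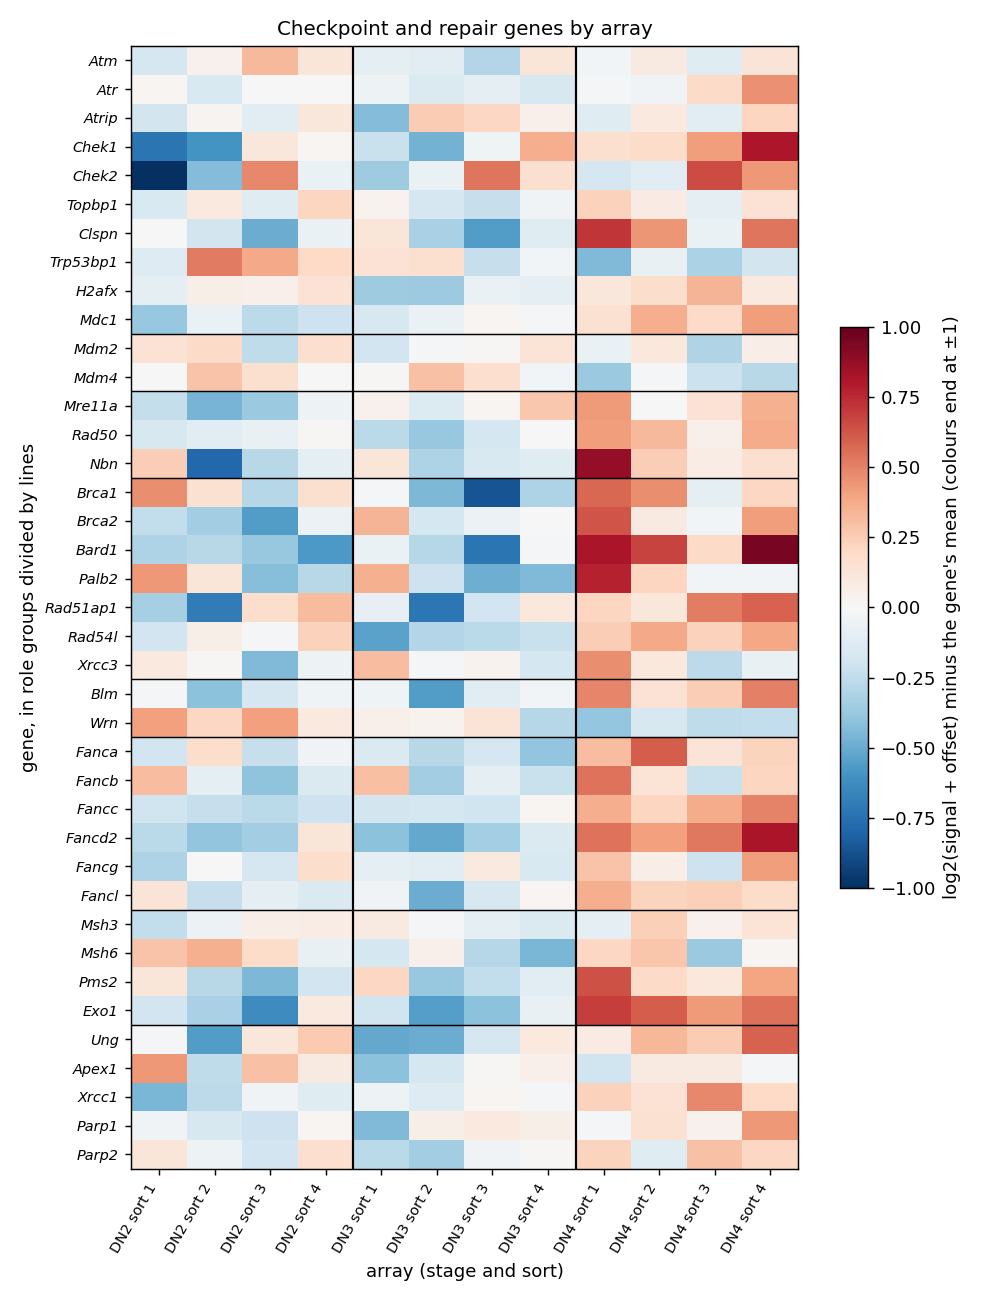
Each cell is log2(signal + offset) of a gene on an array minus that gene's mean over the 12 arrays, with red above and blue below the mean and the colour scale ending at ±1. Genes run down in role groups and arrays run from DN2 through DN3 to DN4 by sort, and 17 of the 39 rows are red in all 4 DN4 columns. They are 3 of 10 checkpoint kinases and mediators, 0 of 2 in the p53 core, 2 of 3 in the MRN complex and 3 of 7 in homologous recombination. The others are 1 of 2 RecQ helicases, 4 of 6 in the Fanconi group, 2 of 4 in mismatch repair and 2 of 5 in base excision and single-strand break repair. The same count was not made over all genes, so these counts have no background beside them.

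Among the 10 checkpoint kinases and mediators, 2 rose and 0 fell in DN4 against DN3 (20% and 0%, beside 7.17% and 8.99% of all genes). In DN4 against DN2 3 rose and 1 fell (30% and 10%, beside 17.9% and 16.6%). The group's median difference relative to all genes was positive in both comparisons under each of the 3 scalings. Clspn encodes claspin, the adaptor through which ATR activates CHEK1. Its signal was 719, 630.3, 507 and 684 in DN2, 782, 571, 485 and 658 in DN3 and 1180.1, 974, 686 and 1039 in DN4, where the numbers follow sorts 1 to 4. The DN4 value was the highest of its sort in every sort, although the ranges of the stages overlapped and sort 3 was low throughout. Clspn rose by 0.63 ± 0.19 in DN4 against DN3 (adjusted p = 0.0449) and by 0.59 ± 0.19 in DN4 against DN2 (adjusted p = 0.0319).

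Chek1 encodes the checkpoint kinase that acts below ATR. Its signal was 598, 655, 1078 and 1009 in DN2, 855, 718, 968 and 1287 in DN3 and 1117, 1132, 1337 and 1748 in DN4. All DN4 arrays lay above all DN2 arrays, and DN4 was above DN3 within each sort. Chek1 rose in DN4 against DN2 by 0.69 ± 0.24, or 1.62-fold (adjusted p = 0.0387), while the difference from DN3 was 0.48 ± 0.24 (adjusted p = 0.183, and 0.0161 with the block on the sort). Chek2, the kinase downstream of ATM, had 34.1, 55.7, 110.1 and 73.6 in DN2, 59.2, 73.4, 114 and 87.1 in DN3 and 68.2, 71.7, 125 and 106 in DN4. Sorts differed more than stages did for Chek2, which was highest in sort 3 at every stage. Its difference in DN4 against DN2 was 0.47 ± 0.31 (adjusted p = 0.26, and 0.0129 with the block).

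The brightest probe sets of the apical kinases themselves were not called in any comparison. Atm had 328, 381, 464 and 402 in DN2, 346, 340.5, 301 and 401 in DN3 and 362, 393, 339 and 405 in DN4, with ranges that overlapped throughout. Atr had 227, 201, 223 and 223 in DN2, 216, 202, 209 and 199 in DN3 and 222, 218, 257 and 309.6 in DN4. For Atr every DN4 array lay above every DN3 array, but the difference of 0.26 ± 0.12 did not pass (adjusted p = 0.155). In a limma fit of every probe set, a dimmer Atr probe set fell in that comparison (-0.69, adjusted p = 0.0438). Its mean signals, 30.2 in DN3 and 16.5 in DN4, were near the filter level. A further Atr probe set was lower without passing (-0.14, adjusted p = 0.63). Atrip, the partner protein of ATR, spanned 98.8 to 162 and differed by 0.0011 ± 0.16 in DN4 against DN3. Topbp1, an activator of ATR, spanned 1839.8 to 2538 and differed by 0.19 ± 0.12. A dimmer probe set of Topbp1 was higher by 0.87 (limma fit of every probe set, adjusted p = 0.00398).

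Mediators at broken chromatin went in different directions. Mdc1 encodes the protein that binds phosphorylated H2AX and recruits further factors. Its signal was 74.2, 93.3, 80.7 and 84.3 in DN2, 87.3, 93.2, 99.3 and 97.0 in DN3 and 109, 128, 113 and 133 in DN4, with no overlap of DN4 with either earlier stage. Mdc1 rose by 0.51 ± 0.11 in DN4 against DN2 (adjusted p = 0.00331), and its difference from DN3 was 0.34 ± 0.11 (adjusted p = 0.0527, and 0.0141 with the block). H2afx, the gene of the histone variant H2AX (H2ax in RefSeq), ranged over 2547 to 3013 in DN4 and 1850.3 to 2270.1 in DN3, without overlap, and rose by 0.40 ± 0.11 (adjusted p = 0.0316). Against DN2, at 2229 to 2631, its difference was 0.14 ± 0.11 (adjusted p = 0.363). Trp53bp1 encodes 53BP1, which limits the resection of broken ends. It fell in every sort in DN4, at 985 to 1273, against DN2, at 1229 to 1926, although the ranges overlapped, with a difference of -0.50 ± 0.15 (adjusted p = 0.0254), and was not called against DN3 (-0.27 ± 0.15, adjusted p = 0.257).

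The p53 core was represented by its negative regulators, of which 0 of 2 was called. Of all genes tested 16.2% were called in DN4 against DN3 and 34.6% in DN4 against DN2. Mdm2, the ubiquitin ligase that degrades p53, had 729, 754, 552 and 739 in DN2, 577, 654, 663 and 725 in DN3 and 630.2, 708, 533 and 689 in DN4, with ranges that overlapped at every step. Its differences were -0.037 ± 0.14 in DN4 against DN3 and -0.11 ± 0.14 in DN4 against DN2. Mdm4, which blocks p53 activity and pairs with MDM2, ranged over 297 to 380.0 in DN4, 378 to 475 in DN3 and 385 to 471 in DN2. Its difference of -0.33 ± 0.12 in DN4 against DN3 (adjusted p = 0.081) passed with the block (adjusted p = 0.00722), as did -0.33 ± 0.12 in DN4 against DN2 (adjusted p = 0.0505, and 0.00382 with the block). Dimmer Mdm4 probe sets above the filter differed in the opposite direction, by 0.10 and 0.56 in DN4 against DN3 and by 0.41 and 0.25 in DN4 against DN2. None of these was called without the block.

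The MRN complex, made of MRE11, RAD50 and NBN, holds broken ends together and activates ATM. Of its 3 genes 1 rose in DN4 against DN3 and 2 rose in DN4 against DN2, beside 7.17% and 17.9% of all genes. Mre11a, the nuclease, had 414, 352, 376 and 470.3 in DN2, 503, 443, 496 and 589 in DN3 and 658, 486, 538 and 625 in DN4, so that each stage lay above the stage before it within every sort. It rose by 0.51 ± 0.14 in DN4 against DN2 (adjusted p = 0.0133), and its difference in DN3 against DN2 of 0.33 ± 0.14 (adjusted p = 0.161) passed with the block (adjusted p = 0.0183). Rad50, the ATPase that bridges the ends, ranged over 456 to 588 in DN4, 337 to 440.0 in DN3 and 392 to 444 in DN2. It rose by 0.50 ± 0.12 against DN3 (adjusted p = 0.0148) and by 0.37 ± 0.12 against DN2 (adjusted p = 0.0279), with no overlap in either. Nbn, the subunit that binds ATM, spanned 257 to 824, and its differences of 0.46 ± 0.22 in DN4 against DN3 and 0.56 ± 0.22 in DN4 against DN2 passed only with the block (adjusted p = 0.0375 and 0.00991).

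Of the 7 homologous recombination genes measured, 3 rose and 0 fell in DN4 against DN3 (Brca1, Bard1 and Rad54l). In DN4 against DN2 2 rose and 0 fell (Brca2 and Bard1). The shares of all genes were 7.17% higher and 8.99% lower, then 17.9% and 16.6%. All 7 differences were positive in both comparisons, down to that of Xrcc3 described below. The median of the group was 0.53 above that of all genes in DN4 against DN3, and 0.56 to 0.58 above it under the other scalings. Bard1 encodes the obligate partner of BRCA1. Its signal was 27.8, 28.5, 26.2 and 22.2 in DN2, 34.1, 28.5, 19.4 and 35.5 in DN3 and 67.6, 60.8, 41.8 and 74.8 in DN4. Every DN4 array lay above every earlier array, and Bard1 rose by 0.93 ± 0.19 against DN3 (1.91-fold, adjusted p = 0.00658) and by 1.05 ± 0.19 against DN2 (2.07-fold, adjusted p = 0.00124). These signals are low, so the offset makes both folds smaller than the ratio of the signals.

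Brca1, whose product directs breaks to recombination, had 1018, 817, 602 and 821 in DN2, 729.8, 536, 402 and 592 in DN3 and 1096, 1020.1, 689 and 849 in DN4. DN3 was its lowest stage in all 4 sorts. Brca1 rose by 0.70 ± 0.21 in DN4 against DN3 (adjusted p = 0.0434) and did not pass against DN2 (0.17 ± 0.21, adjusted p = 0.577). The difference in DN3 against DN2, -0.53 ± 0.21 (adjusted p = 0.142), passed with the block (adjusted p = 0.00339). Dimmer Brca1 probe sets differed in DN3 against DN2 by -0.44, 0.033 and 0.13, with none called in a limma fit of every probe set. Rad54l encodes RAD54, a motor protein that acts during strand exchange with the sister chromatid. It had 383, 456, 431 and 513 in DN2, 299.9, 356, 362 and 374 in DN3 and 519.6, 571, 513 and 573 in DN4, and DN3 was again the lowest stage, without overlap with either neighbour. Rad54l rose by 0.64 ± 0.12 in DN4 against DN3 (adjusted p = 0.0038). Its differences of -0.35 ± 0.12 in DN3 against DN2 and 0.29 ± 0.12 in DN4 against DN2 (adjusted p = 0.0793 and 0.0748) passed only with the block (adjusted p = 0.0147 and 0.0149).

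Brca2, a mediator of strand exchange on single-stranded DNA, had 259, 241, 207 and 295 in DN2, 391, 272, 296 and 306 in DN3 and 479, 329, 303 and 412 in DN4. DN3 was intermediate in each sort, and DN4 did not overlap DN2. Brca2 rose by 0.58 ± 0.17 in DN4 against DN2 (adjusted p = 0.0202) and was not called in DN4 against DN3 (0.25 ± 0.17, adjusted p = 0.341). Palb2, which joins BRCA1 to BRCA2, spanned 40.2 to 104 over all arrays and differed by 0.43 ± 0.25 in DN4 against DN3 (adjusted p = 0.263, and 0.00473 with the block). Rad51ap1, which promotes strand pairing, spanned 752 to 1875 and differed by 0.58 ± 0.24 (adjusted p = 0.116, and 0.00935 with the block). Its dimmer probe sets passed without the block in a limma fit of every probe set. They were higher by 0.93, 0.97 and 0.67 in DN4 against DN3 (adjusted p = 0.00617, 0.0478 and 0.0397). The brightest probe sets of Palb2 and Rad51ap1 also passed with the block in DN4 against DN2 (adjusted p = 0.0193 and 0.0109). Xrcc3, which acts in the same repair route, spanned 114 to 218 and differed by 0.021 ± 0.18 in DN4 against DN3, with DN4 above DN3 in 3 of 4 sorts.

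**Figure D2:**
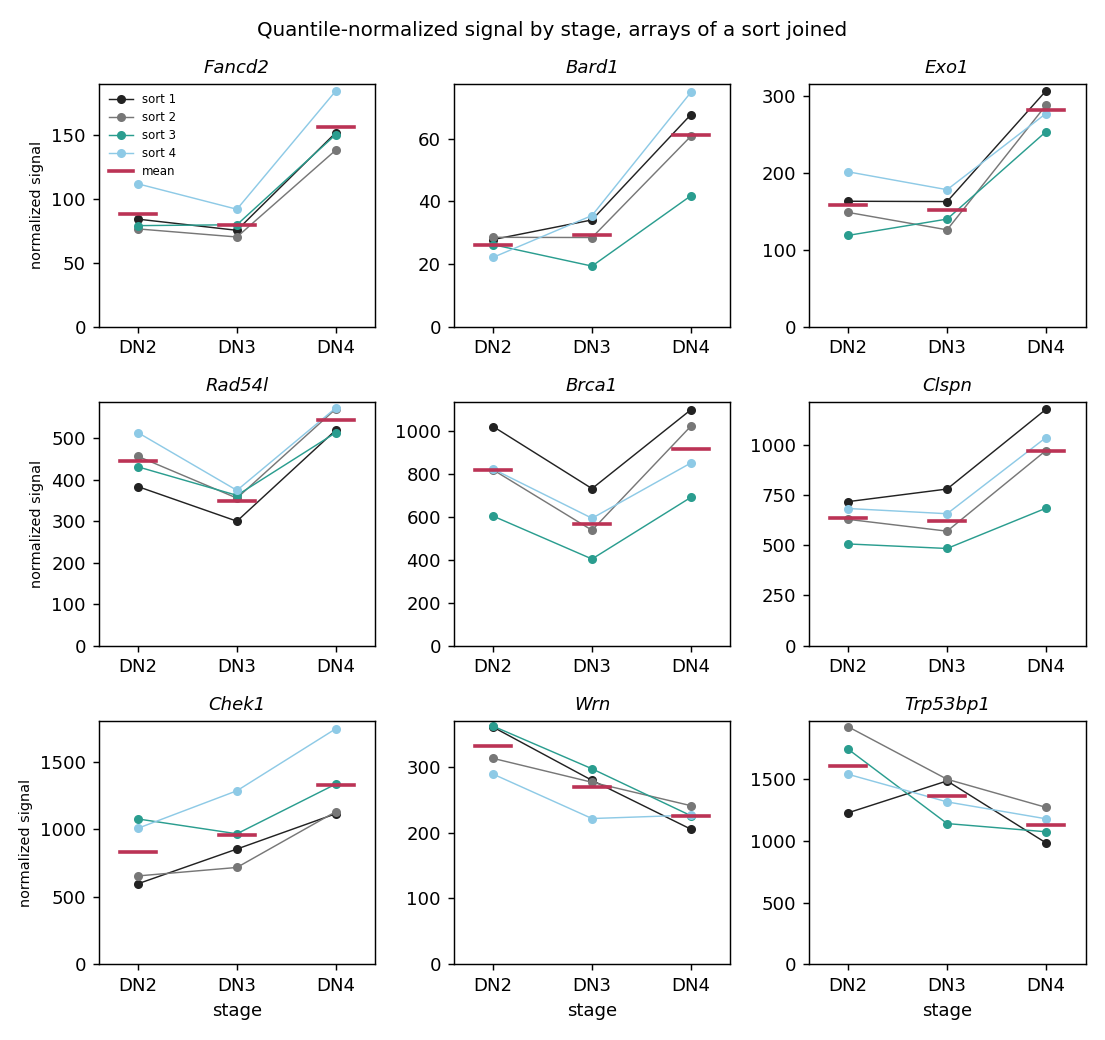
Normalized signal (linear, from 0) of 9 genes in DN2, DN3 and DN4, with a line for each of the 4 sorts and a bar for the stage mean (n = 4). Fancd2, Bard1, Exo1, Rad54l, Brca1 and Clspn were higher in DN4 than in DN3 in every sort, and Wrn was lower in DN4 than in DN2 in every sort.

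The RecQ helicases moved apart. Blm, which with its partners dissolves recombination intermediates, had 369, 279.6, 332 and 361 in DN2, 362, 252, 345 and 366 in DN3 and 524, 414, 443 and 530.4 in DN4. DN4 lay above both earlier stages without overlap, by 0.53 ± 0.15 against DN3 (adjusted p = 0.0319) and 0.50 ± 0.15 against DN2 (adjusted p = 0.0208). Wrn, the helicase and exonuclease lost in Werner syndrome, had 360.3, 313, 362 and 289 in DN2, 279, 277, 297 and 221 in DN3 and 205, 241, 226 and 227 in DN4. It fell in DN4 against DN2 without overlap, with a log2 difference of -0.54 ± 0.12 (adjusted p = 0.00481), and DN3 was intermediate in sorts 1, 2 and 3. The difference in DN4 against DN3 was -0.25 ± 0.12 (adjusted p = 0.191). A dimmer Wrn probe set was higher by 0.28 in DN4 against DN3.

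Of the 6 Fanconi genes 4 rose in DN4 against DN3 (Fanca, Fancc, Fancd2 and Fancl), beside 7.17% of all genes. In DN4 against DN2 3 rose (Fanca, Fancc and Fancd2), beside 17.9%. All 6 differences were positive in both comparisons. The median of the group lay 0.41 above that of all genes in DN4 against DN3, and 0.34 to 0.35 above it under the other scalings. Fancd2 is the protein that the pathway marks with ubiquitin when a crosslink is met. Its signal was 84.1, 76.5, 79.0 and 112 in DN2, 75.4, 70.2, 79.7 and 91.8 in DN3 and 152, 138, 150.1 and 184 in DN4. The lowest DN4 array was above the highest earlier one, and Fancd2 rose by 0.93 ± 0.14 against DN3 (1.90-fold, adjusted p = 0.00131) and by 0.80 ± 0.14 against DN2 (1.74-fold, adjusted p = 0.00111). This was the smallest adjusted p among the 39 genes in DN4 against DN3.

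Fanca and Fancc belong to the core complex that carries out the marking. Fanca had 157, 205, 153 and 176 in DN2, 163, 148, 160.2 and 136 in DN3 and 226, 278, 199 and 212 in DN4, and DN4 did not overlap DN3. It rose by 0.57 ± 0.13 against DN3 (adjusted p = 0.0145) and by 0.39 ± 0.13 against DN2 (adjusted p = 0.04). Fancc had 72.6, 71.1, 69.0 and 72.1 in DN2, 73.6, 73.7, 72.4 and 85.1 in DN3 and 109.9, 98.6, 110.2 and 121 in DN4. DN2 and DN3 lay close together and DN4 stood above both, by 0.50 ± 0.10 against DN3 (adjusted p = 0.00592) and 0.59 ± 0.10 against DN2 (adjusted p = 0.000777). Without between-array normalization Fancc and Fancl in DN4 against DN3 and Fanca in DN4 against DN2 took the opposite sign, in a setting that lowered the all-gene median too. A dimmer Fancc probe set differed in the other direction (-0.087 in DN4 against DN3). Fancl, the ubiquitin ligase subunit, ranged over 547 to 620.1 in DN4 and 340.4 to 489 in DN3 and rose by 0.42 ± 0.13 (adjusted p = 0.0485). Its difference from DN2 passed with the block (0.33 ± 0.13, adjusted p = 0.0657, and 0.0219 with the block). The core subunits Fancb and Fancg spanned 43.4 to 88.8 and 54.7 to 94.0, and differed by 0.26 ± 0.20 and 0.21 ± 0.15 in DN4 against DN3, with neither called.

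Mismatch repair removes base mispairs left by the polymerase. Of the 4 genes 1 rose in DN4 against DN3 (Exo1), beside 7.17% of all genes. In DN4 against DN2 2 rose (Exo1 and Pms2), beside 17.9%. Exo1, the exonuclease that cuts back the faulty strand and also resects broken ends, had 163, 149, 119 and 202 in DN2, 163, 126, 140.2 and 178 in DN3 and 307, 288, 254 and 277 in DN4. The DN4 arrays lay above every earlier array, and Exo1 rose by 0.87 ± 0.16 against DN3 (1.83-fold, adjusted p = 0.0037) and by 0.83 ± 0.16 against DN2 (1.78-fold, adjusted p = 0.00183). Pms2, the endonuclease subunit, had 317, 239, 212 and 255 in DN2, 337, 223, 244 and 269.7 in DN3 and 457, 334, 315 and 385 in DN4. Within each sort DN4 was its highest stage, with a rise of 0.53 ± 0.17 against DN2 (adjusted p = 0.0282) and a difference of 0.47 ± 0.17 against DN3 (adjusted p = 0.0812, and 0.00279 with the block). Msh6, which recognises base mispairs, had 2136, 2254, 1991 and 1664 in DN2, 1555, 1817, 1439 and 1276 in DN3 and 2024, 2126, 1355 and 1783 in DN4. All 4 sorts gave a lower Msh6 signal in DN3 than in DN2, with a log2 difference of -0.40 ± 0.17 (adjusted p = 0.15, and 0.0359 with the block). Msh3, which recognises small insertion and deletion loops, spanned 196 to 275 and was not called by its brightest probe set. In a limma fit of every probe set, a dimmer one fell in DN4 against DN3 (-0.91, adjusted p = 0.0395). It also fell in DN4 against DN2 (-0.83, adjusted p = 0.0292). Another Msh3 probe set above the filter was higher by 0.52 and 0.51 without passing (adjusted p = 0.178 and 0.135).

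Base excision and single-strand break repair genes had 0 calls among 5 in DN4 against DN3, where 16.2% of all genes were called. In DN4 against DN2 1 of 5 rose (Xrcc1), a share of 20% near the 17.9% of all genes called higher. Ung, the glycosylase that removes uracil from DNA, had 1188, 809.8, 1291 and 1436 in DN2, 837, 846, 1065 and 1282 in DN3 and 1268, 1509.8, 1429 and 1803 in DN4. DN4 was its highest stage in all sorts, but the differences of 0.59 ± 0.20 against DN3 and 0.37 ± 0.20 against DN2 passed only with the block (adjusted p = 0.0629 and 0.172 without it, 0.0116 and 0.048 with it). Xrcc1, the scaffold of single-strand break repair, ranged over 488 to 618 in DN4 and 320.0 to 430.3 in DN2, without overlap, and rose by 0.48 ± 0.12 (adjusted p = 0.00819). Against DN3, at 403 to 446, the difference was 0.31 ± 0.12 (adjusted p = 0.0967, and 0.0275 with the block). Parp1, the sensor that marks strand breaks with poly(ADP-ribose), had 1324, 1211, 1172 and 1372 in DN2, 995, 1410.0, 1449 and 1408 in DN3 and 1331, 1507, 1392 and 1828 in DN4. The first DN3 array was low, the stages overlapped, and the difference in DN4 against DN3 was 0.21 ± 0.15 (adjusted p = 0.359). Parp2, its relative, differed by 0.31 ± 0.13, and Apex1, the endonuclease that cuts abasic sites, by 0.12 ± 0.16, with neither called.

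**Figure D3:**
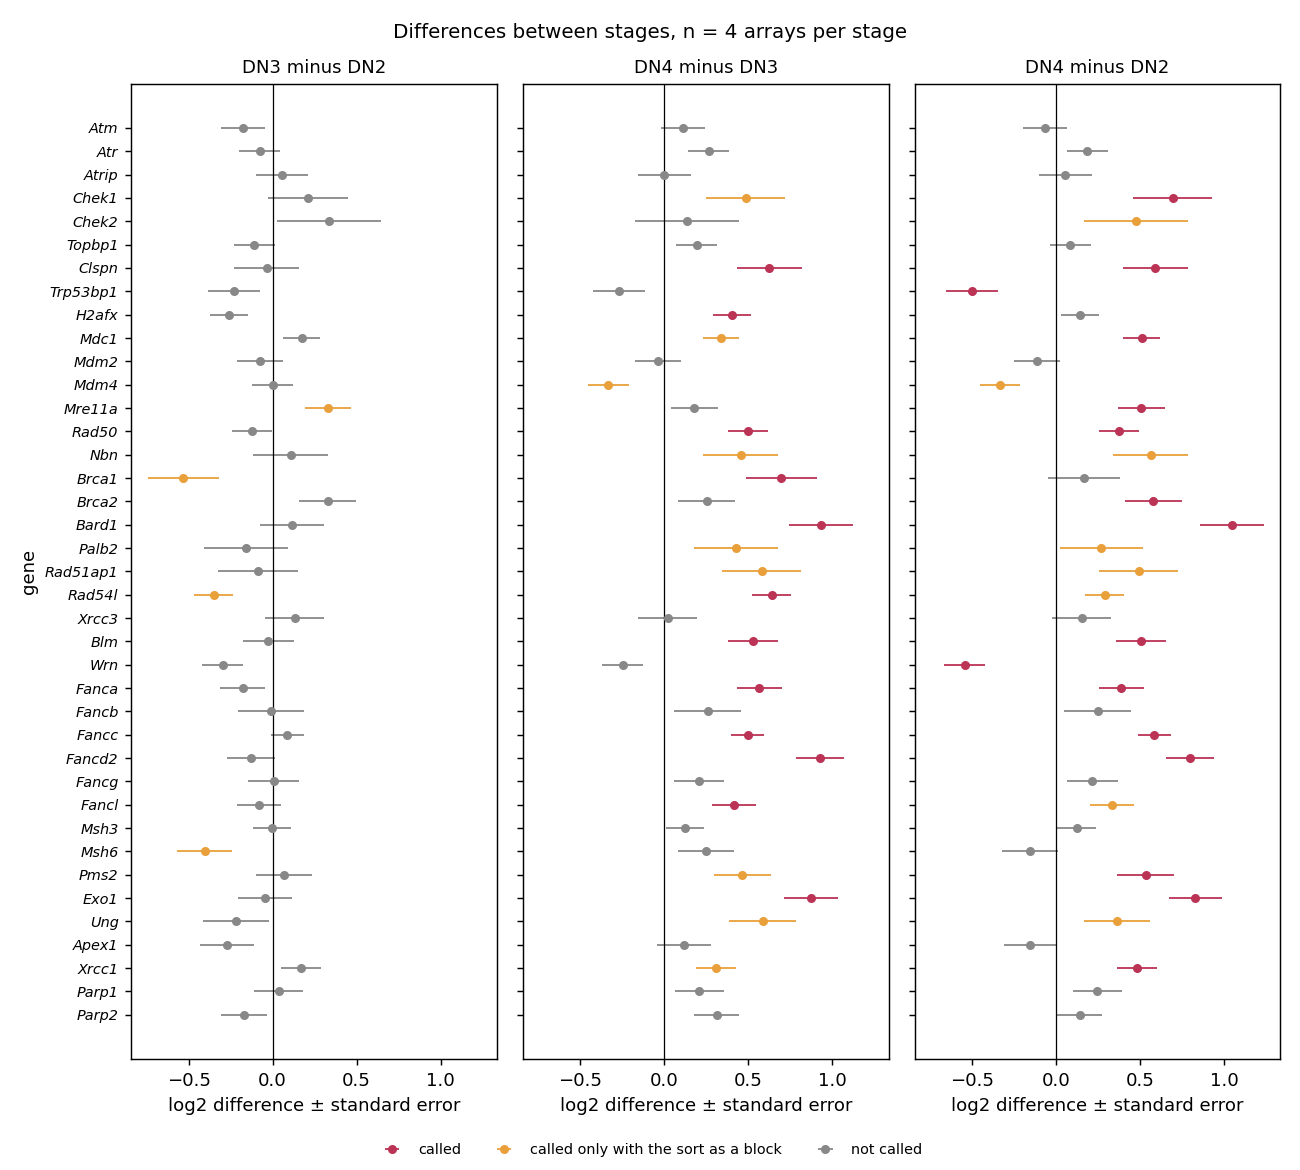
Log2 differences of the 39 genes in DN3 minus DN2, DN4 minus DN3 and DN4 minus DN2, as points with bars of 1 standard error (n = 4 arrays per stage). Red points were called, orange points were called only with the sort as a block and grey points were not called. Red points lie to the right of 0 in DN4 minus DN3, and only Trp53bp1 and Wrn are red to the left of 0 in DN4 minus DN2. Without between-array normalization the median of all genes in DN4 minus DN3 is -0.41, and that of the 39 genes is -0.12.

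The calls differed in how far they rested on single arrays. In DN4 against DN3 6 of 12 held when each of the 12 arrays was left out in turn (Bard1, Rad54l, Fanca, Fancc, Fancd2 and Exo1), with adjusted p of at most 0.0419. Rad50 was lost only without the DN3 array of sort 2 (adjusted p = 0.05004), which was also the array whose removal left 6 genes called. Blm was lost without DN3 of sort 2 or 3 or DN4 of sort 1 or 4 (adjusted p up to 0.0892). H2afx was lost without DN3 of sort 1 or 2 or DN4 of sort 2, 3 or 4 (up to 0.0944). Clspn and Brca1 were each lost without DN2 of sort 2 or 4, DN3 of sort 2, 3 or 4 or DN4 of sort 1, 2 or 4 (up to 0.121 for Clspn and 0.116 for Brca1). Fancl was lost without any array other than DN2 of sort 1 and DN3 of sort 4 (up to 0.131). In DN4 against DN2 8 of 16 held without each array (Mdc1, Mre11a, Bard1, Wrn, Fancc, Fancd2, Exo1 and Xrcc1). The other 8 were lost without 3 to 8 arrays each, and the count of rises was 7 without DN4 of sort 4. Leaving out DN4 of sort 1 or 4 ended the calls of Brca2, Blm, Pms2, Clspn, Rad50 and Fanca (adjusted p up to 0.0583, 0.0604, 0.0792, 0.0877, 0.0728 and 0.114 over all arrays left out). Further arrays that ended a call were DN2 of sort 3 for Brca2, DN2 of sort 2 for Blm, and DN2 of sort 2, 3 or 4 for Pms2. For Clspn they were DN2 of sort 2 or 3 and DN4 of sort 2, for Rad50 DN2 of sort 1, 2 or 3 and DN4 of sort 2, and for Fanca DN2 of sort 1, 3 or 4, DN3 of sort 2 or 3 and DN4 of sort 2. Chek1 was lost without DN2 of sort 1 or 2, DN3 of sort 3 or DN4 of sort 3 or 4 (up to 0.11), and Trp53bp1 without DN2 of sort 2 or 3 or DN4 of sort 1 or 3 (up to 0.0696).

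The choice of probe set also bore on the calls. When a gene's probe sets were averaged instead of taking the brightest, the calls of Rad50, Fancc, Fancl and Exo1 in DN4 against DN3 were lost (4 of 12), and those of Trp53bp1, Mre11a, Rad50, Wrn, Fancc and Exo1 in DN4 against DN2 (6 of 16). For Rad50, Fancl, Exo1 and Wrn the average took in a probe set below the filter, and for Fancc, Trp53bp1 and Mre11a it did not. A dimmer Exo1 probe set above the filter was higher in DN4 by 0.58 against DN3 and 0.71 against DN2 (limma fit of every probe set, adjusted p = 0.0238 and 0.00318). Fancc, Exo1, Mre11a and Wrn were among the calls that held without each array.

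Levels also differed between sorts. An F test of the sort number with the stage kept, added after the data were seen, called 10 of 39 genes, beside 15.1% of all genes. In 5 of them (Chek1, Chek2, Rad51ap1, Fancd2 and Blm) the mean of sorts 3 and 4 was above that of sorts 1 and 2, and in 5 (Clspn, Brca1, Palb2, Fancb and Pms2) below it, a division that the labels do not give and that was chosen after the values were seen. Chek2 gave 0.96, 0.56 and 0.68 for this difference in DN2, DN3 and DN4 (adjusted p between the sorts = 0.015). Palb2 gave -0.63, -0.54 and -0.52 (adjusted p = 0.0107), and Brca1 -0.37, -0.35 and -0.46 (adjusted p = 0.0156). Chek1, Chek2, Palb2 and Msh6 kept sorts 1 and 2 apart from sorts 3 and 4 without overlap in every stage. Of these Msh6 was not called between the sorts (F test, adjusted p = 0.112). Such separation was not counted over all genes, so it has no background beside it. Each sort holds every stage, so blocking on the sort compares stages within sorts.

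**Figure D4:**
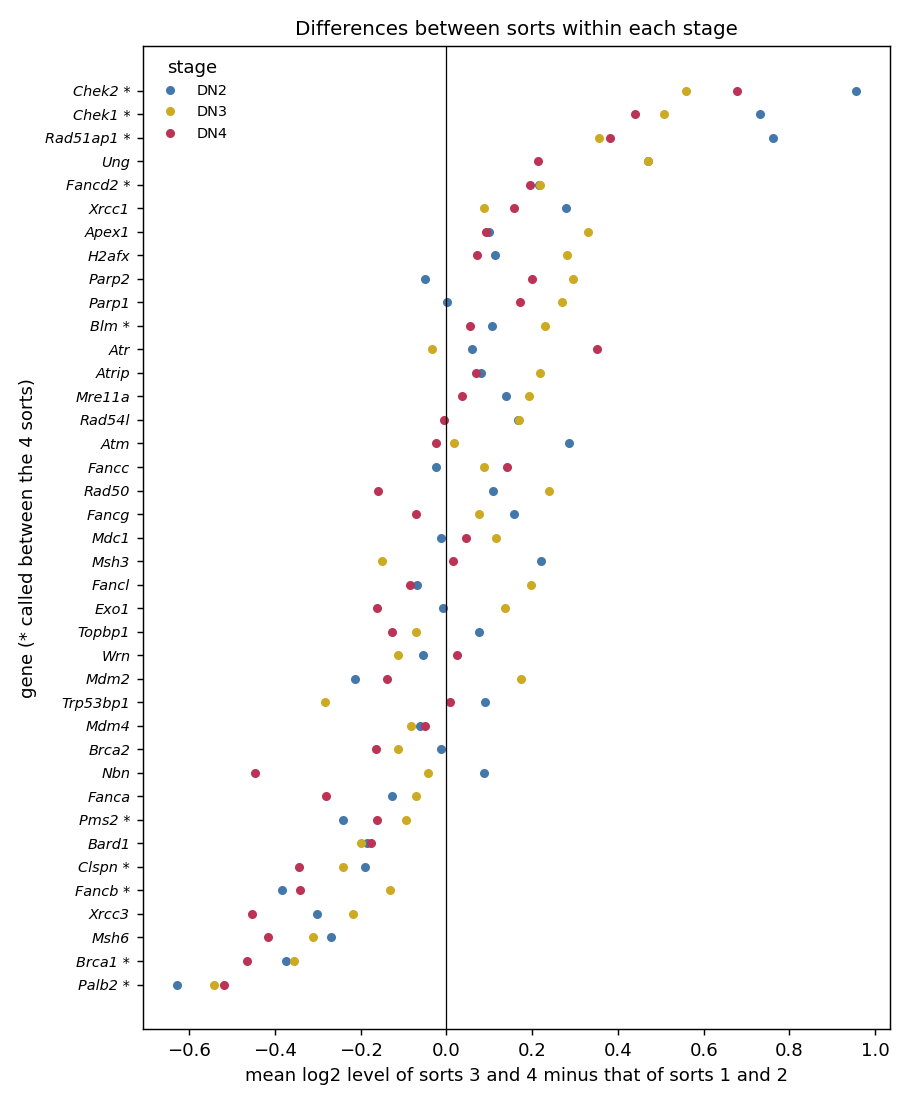
For each of the 39 genes, the mean log2 level of sorts 3 and 4 minus that of sorts 1 and 2 within DN2, DN3 and DN4 (2 arrays against 2 in each stage, no error bars). Asterisks mark the 10 genes called between the 4 sorts, and the stages of a called gene lie on the same side of 0.

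Further genes of the same pathways were read against the 7.17% of all genes called higher and 8.99% called lower in DN4 against DN3. Of 15 other checkpoint genes 6 rose (40%) and 0 fell in DN4 against DN3, and their median lay 0.44 above that of all genes (0.37 and 0.40 under the other scalings). Cdc25c and Cdc25b, phosphatases that open entry into mitosis, rose by 0.90 ± 0.15 and 0.56 ± 0.11 (adjusted p = 0.00218 and 0.00661). Timeless, a replication fork protection factor, rose by 0.84 ± 0.17 (adjusted p = 0.00603), and Wee1, the kinase that restrains CDK1, by 0.49 ± 0.13 (adjusted p = 0.0233). Of 17 other homologous recombination genes 5 rose (29.4%) and 0 fell in that comparison, with a median 0.39 above that of all genes (0.36 and 0.37 under the other scalings). Rad51c, which also acts with Xrcc3, rose by 1.47 ± 0.25 (adjusted p = 0.00219), and Rmi2, a partner of BLM, by 0.74 ± 0.12 (adjusted p = 0.00166). Recql4, another RecQ helicase, rose by 0.74 ± 0.16 (adjusted p = 0.00889). Eme1, a subunit of a structure-specific nuclease, rose by 0.73 ± 0.17 in DN4 against DN3 (adjusted p = 0.0144) and fell in DN3 against DN2, with a difference of -0.79 ± 0.17 (adjusted p = 0.0107).

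Of 10 other Fanconi genes 3 rose (30%) and 0 fell in DN4 against DN3, and their median lay 0.070 above that of all genes (0.096 and 0.091 under the other scalings). The 3 were Fanci, the partner of FANCD2, at 0.73 ± 0.16 (adjusted p = 0.00991) and Fance and Fancm, both of which work with the core complex, at 0.67 ± 0.19 and 0.53 ± 0.15 (adjusted p = 0.0304 and 0.0336). Pms1, a MutL homologue, rose by 0.85 ± 0.21 (adjusted p = 0.0184) among 2 other mismatch repair genes. Of 16 other base excision genes 1 rose and 1 fell (6.25% each), with a median 0.079 above that of all genes (0.018 and 0.020 otherwise), namely Aplf, an end-processing factor (0.96 ± 0.22, adjusted p = 0.0121), and Neil1, a glycosylase (-0.58 ± 0.18, adjusted p = 0.0494). Of 17 nucleotide excision repair genes 2 rose (11.8%) and 0 fell, with Gtf2h4, a TFIIH subunit, at 0.67 ± 0.10 (adjusted p = 0.00112) and Ercc1, a nuclease subunit, at 0.47 ± 0.15 (adjusted p = 0.0472). In DN4 against DN3 the median of this list lay below that of all genes under each scaling. In DN4 against DN2 the counts were 6 of 15 higher among other checkpoint genes, 7 of 17 among other homologous recombination genes and 4 of 10 among other Fanconi genes. They were 1 of 2 among other mismatch repair genes, 5 of 16 among other base excision genes and 5 of 17 in nucleotide excision repair, with 0 lower in each of these 6 lists, beside 17.9% higher and 16.6% lower over all genes.

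With the sort as a block these lists changed in both directions. Of all genes tested the block called 15.4% higher and 14.8% lower in DN4 against DN3. The shares were 24.9% and 21.9% in DN4 against DN2, and 9.96% and 10.8% in DN3 against DN2. In DN4 against DN3 the block called 11 of 15 other checkpoint genes, 8 of 17 other homologous recombination genes, 2 of 16 other base excision genes and 5 of 17 nucleotide excision repair genes higher. It called 1 other Fanconi gene, 2 other base excision genes and 1 nucleotide excision repair gene lower there. Against DN2 it called, for DN4, 10 of 15 other checkpoint genes and 8 of 16 other base excision genes higher, and 2 other Fanconi, 1 other base excision and 2 nucleotide excision repair genes lower. In DN3 against DN2 it called 1 other checkpoint gene higher and 3 lower, 1 other Fanconi gene higher, and 2 base excision and 3 nucleotide excision repair genes higher.

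End joining seals the breaks made by the RAG recombinase. Of its 9 genes 0 were called in DN4 against DN3, where 16.2% of all genes were called. In DN3 against DN2 2 rose and 0 fell, beside 4.76% and 6.45% of all genes. In DN4 against DN3 2 of the 9 had an unadjusted p under 0.05, beside 3509 of all 11174 genes tested. Polm, a polymerase that fills gaps at joins, rose by 1.71 ± 0.20 in DN3 against DN2 (adjusted p = 0.000156), and Xrcc5, which encodes Ku80, by 0.55 ± 0.13 (adjusted p = 0.0207). The block called 1 end joining gene lower in DN3 against DN2 and 1 in DN4 against DN2, beside 10.8% and 21.9% of all genes. Polm and Xrcc5 also rose in DN4 against DN2, by 1.70 ± 0.20 and 0.70 ± 0.13 (adjusted p = 4.9e-05 and 0.00193).

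Of 24 p53 target genes 3 rose and 2 fell in DN4 against DN3 (12.5% and 8.33%, beside 7.17% and 8.99% of all genes). In DN4 against DN2 5 rose and 3 fell (20.8% and 12.5%, beside 17.9% and 16.6%), and in DN3 against DN2 2 rose and 2 fell (8.33% each, beside 4.76% and 6.45%). These shares are near those of all genes. With the block 3 were called higher and 4 lower in DN4 against DN3 (12.5% and 16.7%, beside 15.4% and 14.8% of all genes). In DN4 against DN2 the block called 8 higher and 6 lower (33.3% and 25%, beside 24.9% and 21.9%). In DN3 against DN2 it called 4 higher and 2 lower (16.7% and 8.33%, beside 9.96% and 10.8%). Cdkn1a, which encodes the cell cycle inhibitor p21, fell by 2.63 on the log2 scale in DN4 against DN3 (6.20-fold, adjusted p = 0.000655) and by 3.40 in DN4 against DN2 (adjusted p = 2.6e-05). Trp53inp1, a stress-induced regulator of p53, differed by -0.71 ± 0.20 in DN4 against DN3 (adjusted p = 0.0326). Pidd1, a death domain adaptor (0.64 ± 0.12, adjusted p = 0.00478), and Ppm1d, a phosphatase that shuts the checkpoint off (0.50 ± 0.11, adjusted p = 0.00913), rose in the same comparison. In DN3 against DN2 Gadd45a rose by 1.01 ± 0.18 (adjusted p = 0.00283) and Zmat3 by 0.85 ± 0.21 (adjusted p = 0.0217), while Ppm1d and Sesn1 fell (-0.43 ± 0.11 and -0.47 ± 0.12, adjusted p = 0.0226 and 0.0271). The list's median relative to all genes changed sign with the scaling (0.055 with quantile normalization, -0.038 and -0.028 otherwise, in DN4 against DN3).

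A list of 30 proliferation genes moved together with the checkpoint and repair genes. Of these 18 rose and 0 fell in DN4 against DN3, beside 7.17% and 8.99% of all genes. In DN4 against DN2 19 rose and 0 fell, beside 17.9% and 16.6%. In DN3 against DN2 0 rose and 1 fell (Ccnb2), beside 4.76% and 6.45%. In the last comparison the block called 1 higher and 2 lower, beside 9.96% and 10.8% of all genes. Their summed signal was 63631 to 75360 in DN2, 59529 to 72451 in DN3 and 83602 to 91169 in DN4, so that the DN4 arrays lay above all others. Gins2, part of the replicative helicase, rose by 0.76 ± 0.11 in DN4 against DN3 (adjusted p = 0.00125). Ccne1 and Ccnb2, cyclins of the entry into S phase and into mitosis, rose by 0.91 ± 0.16 and 0.88 ± 0.16 (adjusted p = 0.00258 and 0.00329). The part of proliferation in the differences of the checkpoint and repair genes was not tested.

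**Figure D5:**
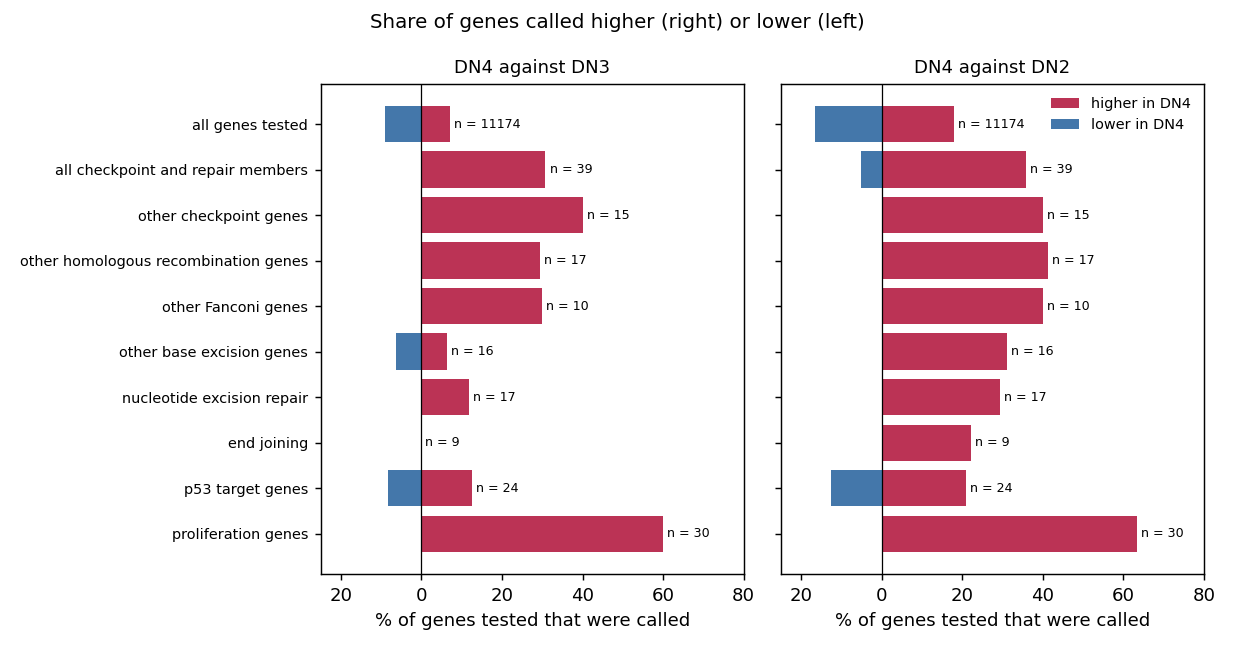
Percent of the genes tested in each list that were called higher (red, to the right) or lower (blue, to the left) in DN4 against DN3 and in DN4 against DN2, with the number of genes tested beside each bar. In DN4 against DN3 the 39 checkpoint and repair genes had 30.8% called higher and 0% lower, beside 7.17% and 8.99% of all genes tested and 60% higher among the proliferation genes.

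Markers of other cells differed between the stages. Cpa3, a mast cell protease gene that early T cell progenitors also express, averaged 3226 in DN2, 143 in DN3 and 36.9 in DN4. Over 8 mast cell markers, 2 of them above the filter, the summed signal was 2825 to 3798 in DN2, 89.4 to 263 in DN3 and 61.3 to 84.3 in DN4. The summed signal of 11 myeloid markers, 7 of them above the filter, was 1019 to 1911 in DN2, 369 to 487 in DN3 and 112 to 203 in DN4. That of 8 natural killer cell markers, 4 above the filter, was 1846 to 2074, 514 to 785 and 132 to 163 in the same order. The summed signal of 7 B cell markers, 5 above the filter, was 2332 to 3691 in DN2, 2891 to 3119 in DN3 and 4522 to 5026 in DN4. Most of it was Ighm, the immunoglobulin mu gene, which averaged 2684 in DN2, 2669 in DN3 and 4384 in DN4, and rose by 0.72 ± 0.14 in DN4 against DN3 (adjusted p = 0.00571). Ms4a1, the gene of CD20, averaged 27.5 in DN4 and 7.78 in DN3 and rose by 1.30 ± 0.35 (adjusted p = 0.0265), so that 2 of 5 B cell markers rose in that comparison. Of the other B cell markers measured, Cd79b, Pax5 and Blk were not called and Cd79a and Ebf1 lay below the filter. Dendritic cell markers (5 of 8 above the filter) summed to 391 to 898 in DN2, 219 to 423 in DN3 and 281 to 1076 in DN4. In DN4 against DN3 all 5 had an unadjusted p under 0.05, 4 differences were positive and the median was 1.11. Cd74, the invariant chain of MHC class II, rose by 1.11 ± 0.27 (adjusted p = 0.0162). The block called 4 higher (Cd74, H2-Aa, H2-Ab1 and H2-Eb1, all of the class II pathway) and 1 lower (Itgax). H2-Aa had 47.3, 305, 364 and 404 in DN4 and 43.0, 63.4, 99.5 and 92.6 in DN3, so that it stood higher in DN4 in every sort and by little in sort 1. Ighm, Ms4a1 and Cd74 thus rose alongside the checkpoint and repair genes in DN4 against DN3. Gamma-delta T cell markers (3 of 3) summed to 1435 to 1630.3 in DN2, 614 to 1001 in DN3 and 477 to 764 in DN4. Thymic stroma markers (3 of 5) summed to 149 to 264, 417 to 609 and 184 to 265 in the same order. The largest part of the stroma sum was Epcam, which averaged 179, 474 and 145 across these stages. Krt5 averaged 26.0, 26.1 and 25.4, and Krt8 16.0, 9.76 and 33.9, so neither shared the Epcam peak at DN3. Psmb11 and Col1a1 lay below the filter. The part of all these other cell types in the differences was not tested. The log2 ratio of the 3' to the 5' control probe sets of Gapdh was 1.10 to 1.82 in DN2, 0.88 to 1.26 in DN3 and 1.02 to 1.46 in DN4, and its part in the results was not tested.

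The promoters of genes that rose in DN4 were examined because many replication-linked genes are bound by E2F factors near their start. RefSeq (GRCm38.p6) gave a window of 250 bases before to 50 after the start for 34 of the 41 genes. Words of the E2F core (TTTCCCGC, TTTCGCGC, TTTGCCGC or TTTGGCGC, on either strand) were found in 9 of 34 windows (26.5%), beside 2.32% of the 27025 genes in the table and 4.43% of the 9100 tested genes with a window. The word CCAAT, on either strand, was found in 21 of 34 (61.8%), beside 37.9% and 38.9%. Among genes with a window, 2 of 8 that rose in DN4 against DN3 (25%) held an E2F word, and 7 of 25 that were not called (28%). The median GC content of the windows was 60%, beside 60.7% of the tested genes. The 9 genes were Chek2, Topbp1, Clspn, Mdc1, Brca2, Bard1, Fancg, Msh3 and Msh6. The 4 of them that rose in DN4 against DN3 or DN2 are printed to show where the word lies, 5' to 3' along the gene's strand, with the word in capitals. Clspn is at chr4:126556730-126557029 (plus strand), Bard1 at chr1:71102923-71103222 (minus strand), Mdc1 at chr17:35841248-35841547 (plus strand) and Brca2 at chr5:150522371-150522670 (plus strand). With the start site as base 1, the word began at base 22 in Clspn, at -209 in Bard1, at -16 in Mdc1 and at -168 in Brca2, and in Clspn and Brca2 it lies on the opposite strand, so that its reverse complement is printed. A match is a run of letters, not a site shown to be bound.
Clspn: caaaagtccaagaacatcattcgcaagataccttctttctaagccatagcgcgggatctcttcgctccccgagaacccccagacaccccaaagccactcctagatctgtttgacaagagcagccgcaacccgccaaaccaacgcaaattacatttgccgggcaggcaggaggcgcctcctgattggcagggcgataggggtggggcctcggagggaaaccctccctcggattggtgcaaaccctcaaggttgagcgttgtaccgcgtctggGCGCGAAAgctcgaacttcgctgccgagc
Bard1: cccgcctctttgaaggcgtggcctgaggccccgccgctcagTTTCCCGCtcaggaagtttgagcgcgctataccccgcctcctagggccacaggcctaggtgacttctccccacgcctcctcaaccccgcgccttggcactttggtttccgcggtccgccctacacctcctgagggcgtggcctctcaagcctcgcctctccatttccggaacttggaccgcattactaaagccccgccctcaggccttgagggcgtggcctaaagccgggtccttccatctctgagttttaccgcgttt
Mdc1: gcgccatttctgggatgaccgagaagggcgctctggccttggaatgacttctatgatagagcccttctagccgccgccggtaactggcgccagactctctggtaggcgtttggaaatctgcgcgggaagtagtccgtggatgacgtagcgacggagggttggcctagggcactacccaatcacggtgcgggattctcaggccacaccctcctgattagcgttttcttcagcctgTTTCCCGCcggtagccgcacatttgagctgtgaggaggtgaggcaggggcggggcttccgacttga
Brca2: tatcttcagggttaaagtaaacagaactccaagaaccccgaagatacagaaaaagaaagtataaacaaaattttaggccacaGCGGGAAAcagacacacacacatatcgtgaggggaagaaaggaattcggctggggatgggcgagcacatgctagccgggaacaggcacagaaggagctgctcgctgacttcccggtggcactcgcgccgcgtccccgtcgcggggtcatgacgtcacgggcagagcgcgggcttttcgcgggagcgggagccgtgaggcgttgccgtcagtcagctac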

How the data were processed

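Gene expression was measured in DN2, DN3 and DN4 thymocytes on 12 arrays. The deposited values are linear probe set signal intensities that the authors made with GCOS, per the submitters' processing notes, with version, algorithm and scaling not given in the sources used here. The 64 control probe sets among 45101 were set aside, and the rest were quantile-normalized (limma 3.58.1, R 4.3.3). An offset of 5.68 (the 25th percentile of the signals) was added before log2. The platform annotation gave 34958 probe sets 1 gene symbol, 932 several and 9211 none; 34754 symbols were updated through RefSeq and 204 kept. The brightest probe set stood for each of 18193 genes, and genes above log2 4.71 (signal 20.5) on at least 4 arrays were tested. One limma fit over all 12 arrays, with 9 residual degrees of freedom, gave the 3 comparisons of stages, which share arrays, with Benjamini-Hochberg adjusted p-values called under 0.05. The fit was tested on simulated data. Python 3.11.15, pandas 2.3.3 and matplotlib 3.10.9 were used for promoters and figures.

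Per the labels, arrays of the same number come from the same sort, so samples were paired. Their deviations from the stage means correlated at r = 0.251 to 0.343 within a sort, against -0.241 to 0.107 between sorts, and 12 of 12 arrays correlated best with their own sort. The block on the sort is given where it changes a call of the 39 genes and, for the other pathway lists, where it moves a count by over 1.5 times. Within a stage arrays correlated at 0.969 to 0.985, and 0 pairs were identical. Precision is limited by having 4 arrays per stage.

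The genes and lists were chosen with earlier results of these data known. Values on every array are given for genes called in a comparison with a log2 difference of at least 0.5 in size and for the genes that define each role, and other lists give at most 4 called genes per comparison. Trp53 and Xrcc2 were not analysed here. Alternatives covered the block, normalization, offset, filter, choice of probe sets, arrays in the fit, sorts, moderation and each array left out. The test between sorts was added after the data were seen. Probe set signals are not comparable between genes.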

Additional observations from a re-analysis of the deposited data

Results flagged for a closer look

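Among 117 groups of 4 arrays (39 genes in 3 stages), 5 held an array whose gap to its nearest neighbour, as a share of the group's range, was above Dixon's critical value for groups of 4, and chance gives about 1 in 20. Atr was low in DN2 sort 2, at 200.5 against 223 to 227 in the other sorts (share 0.833). Mdm2 was low in DN2 sort 3, at 552 against 729 to 754 (share 0.889). Blm was low in DN3 sort 2, at 252 against 345 to 366 (share 0.841). Fancc was high in DN3 sort 4, at 85.1 against 72.4 to 73.7 (share 0.894). Parp1 was low in DN3 sort 1, at 995 against 1408 to 1449 (share 0.923).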

How the results depend on the processing

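With the replicate block on the sort, in this paired design, 1 gene was called higher and 3 lower in DN3 against DN2 (0 and 0 without it), 20 higher and 1 lower in DN4 against DN3 (12 and 0), and the counts over all genes were 2325 (1253 without it) and 3369 (1806). In DN4 against DN2 the block called 21 higher and 3 lower (14 and 2 without it), and 5226 of all genes (3863 without it). With arrays centred on their median, 7 genes were called higher and 1 lower in DN4 against DN3. Without between-array normalization 0 were called higher and 3 lower in DN4 against DN3 and 0 higher in DN4 against DN2, and all genes called were 603 in DN3 against DN2 and 2877 in DN4 against DN3. In that setting Fancc (-0.076) and Fancl (-0.073) in DN4 against DN3 and Fanca (-0.052) in DN4 against DN2 reversed, and the all-gene median was also below 0. The percent of all calls that were higher in DN4 against DN3 was 44.4 with quantile normalization, 26.8 with median centring and 1.39 without either; in DN4 against DN2 it was 51.9, 52 and 9.46, and in DN3 against DN2 42.5, 54.1 and 48.6. With no filter, 7 genes were called higher in DN4 against DN3 (1129 of all genes), and 9 higher and 1 lower in DN4 against DN2. In DN4 against DN2, 0 were called lower with the mean of all probe sets and 1 with probe sets matching several transcripts left out. With sorts 1 and 2 only, and with sorts 3 and 4 only, 0 and 0 were called higher in DN4 against DN3, and 4 and 2 higher and 0 and 0 lower in DN4 against DN2. All genes called were then 256 and 437 in DN3 against DN2, 225 and 233 in DN4 against DN3, and 1863 and 2243 in DN4 against DN2. With each array left out in turn, 0 to 1 genes were called lower and 938 to 1238 of all genes called in DN3 against DN2, 6 to 13 higher and 1115 to 1909 of all genes in DN4 against DN3, and 7 to 14 higher, 1 to 3 lower and 3200 to 3808 of all genes in DN4 against DN2. The lowest counts in DN4 against DN3 came without DN3 replicate 2 (6 and 1115), with 7 higher without DN4 replicate 4. In DN4 against DN2 they came without DN4 replicate 4 (7 higher), DN4 replicate 1 (8 higher) and DN2 replicate 2 or 3 (9 higher). Of 28 calls 14 held without each array, 0 held in every setting run, and 24 results not called were called in at least 1 setting. The cause of these changes was not tested.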
